A study of Mustela putorius furo and Mus musculus with 4 samples.

Results

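SOX transcription factors were followed in RNA-seq libraries of cultured ferret and mouse astrocytes. The set held 10 genes, chosen by symbol without regard to case: Sox2, Sox4, Sox5, Sox6, Sox8, Sox9, Sox10, Sox11, Sox13 and Sox21. All 10 had a value in mouse astrocytes and 8 had one in ferret astrocytes. No ferret value carried the symbol SOX2 or SOX11, so these genes were not analysed in ferret and only their mouse levels are given. The 8 genes that could be compared were among 13373 symbols shared by the species. The astrocytes came from the cerebral cortex of ferrets (Mustela putorius furo) on postnatal day 1 and of ICR mice on postnatal day 1 to 3, with 2 libraries per species. Mixed glia of both species were grown for 14 days in 10% serum, then shaken and plated again. Serum was removed on day 3, and RNA was taken on day 7 from serum-free medium that contained heparin-binding EGF-like growth factor. Libraries were made in duplicate, and no source used here says that they were separate cultures, so the p-values below measure only the spread between these libraries.

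SOX proteins bind DNA through a high-mobility-group (HMG) box, which enters the minor groove and bends the helix. The family is divided into groups by the sequence of that box, and members of a group often replace or oppose each other at the same sites. In the developing brain, SOX2 keeps progenitors and astroglia in an undifferentiated or glial state, SOX9 takes part in the switch from neurons to glia and remains on in astrocytes, SOX10 drives oligodendrocytes and Schwann cells, and SOX4 and SOX11 act in young neurons. SOX5 and SOX6 lack an activation domain of their own and work with or against SOX9 and SOX10.

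The relationship of the members is visible in the mouse coding sequence. The 60-base in-frame stretch in which the 10 mouse genes were most alike to Sox9 lies at coding bases 310 to 369 of Sox9, within an exon in every gene, and 31 of the 60 bases were identical in all 10 members. Capitals mark those 31 bases in the stretches below, which are shown for the 3 genes of group E, the pair of group B and 1 gene each of groups C and D, 5′ to 3′ on the coding strand of GRCm38.
Sox10 (chr15:79163351-79163410, minus strand): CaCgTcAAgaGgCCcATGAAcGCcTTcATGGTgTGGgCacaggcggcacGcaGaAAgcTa
Sox9 (chr11:112782894-112782953, plus strand): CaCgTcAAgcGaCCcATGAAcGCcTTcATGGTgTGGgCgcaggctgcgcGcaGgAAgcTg
Sox8 (chr17:25570172-25570231, minus strand): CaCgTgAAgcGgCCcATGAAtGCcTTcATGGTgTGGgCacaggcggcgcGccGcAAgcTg
Sox21 (chr14:118235558-118235617, minus strand): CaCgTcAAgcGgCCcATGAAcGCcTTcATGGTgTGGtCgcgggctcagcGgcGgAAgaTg
Sox2 (chr3:34650539-34650598, plus strand): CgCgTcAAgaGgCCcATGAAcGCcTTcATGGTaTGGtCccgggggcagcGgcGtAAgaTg
Sox4 (chr13:28952791-28952850, minus strand): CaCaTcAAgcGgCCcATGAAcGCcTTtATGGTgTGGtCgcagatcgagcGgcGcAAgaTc
Sox6 (chr7:115489712-115489771, minus strand): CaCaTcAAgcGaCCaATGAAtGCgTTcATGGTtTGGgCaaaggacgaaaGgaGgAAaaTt
Pairs of members from the same group shared 51 to 53 of the 60 bases, and pairs from different groups shared 39 to 52, with a median of 45. Sox8, Sox9 and Sox10 of group E shared 53 bases in each of their 3 pairs. The ferret sequences were not used here.

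Levels are given in FPKM, fragments per kilobase of exonic sequence relative to all mapped fragments, as the authors deposited them for each library. FPKM is divided by gene length and can be set side by side between genes, although each species was quantified on its own gene models and the ferret gene lengths were not used here. Species were compared with limma on log2(FPKM + 1) for 10204 shared genes with a mean of at least 1 FPKM in either species, and all 8 SOX genes passed this limit. A gene under 1 FPKM in 1 species passed only through the other, which fixed the direction of its difference. Calls required a limma p, adjusted over all 10204 genes by Benjamini and Hochberg's method, under 0.05 together with a log2 difference beyond 1 in size. On this scale the difference of low genes is understated. Over all tested genes the median log2 difference, ferret minus mouse, was -0.35, and the shared symbols added up to 227391 and 236543 FPKM (ferret) against 300465 and 308121 FPKM (mouse), so a log2 difference near -0.35 was typical of these libraries. FPKM itself holds no counts, and the read counts and gene lengths that the paper gives in its supplement were not used here. Steps between the lowest values gave only the relative depth of duplicates. It was 1.17 for ferret replicate 1 against 2 and 0.83 for mouse replicate 1 against 2. The astrocyte marker Gfap stood at like levels in both species, at 1502 ± 29.1 in ferret and 1487 ± 82.7 in mouse (SD, n = 2), and of 10 astrocyte markers 7 were called lower and 1 higher in ferret, where 30.1% of all tested genes were called lower and 13.1% higher. After quantile normalization these became 4 lower and 2 higher. The glutamate transporter gene Slc1a2, named after its values were seen, was low in the ferret libraries, at 0.133 and 0.178 FPKM against 47.1 and 51.8 in mouse.

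Together the 8 SOX genes reached 90.6 and 99.9 FPKM in ferret, 89.9 and 94.2 FPKM in mouse. The ranges of the species thus overlapped in the total of FPKM as deposited. That total was not rescaled, although the shared symbols summed lower in ferret, and it leaves out Sox2 and Sox11. The mix behind that total was different. Sox10 made up 29.1% and 31.0% of the summed FPKM in ferret replicates 1 and 2, but 0.257% and 0.323% in mouse replicates 1 and 2. Sox21 held 27.3 ± 0.071% (SD, n = 2) of the ferret and 11.3 ± 0.397% of the mouse mix. Sox9 was the largest part of the mouse mix, with 36.4 ± 0.148%, and held 18.5 ± 0.344% in ferret. Sox6 held 6.40 ± 0.110% in ferret and 23.2 ± 0.770% in mouse, and Sox4 held 8.16 ± 0.691% and 19.2 ± 0.515%. The remaining 3 genes, Sox5, Sox8 and Sox13, held at most 4.67% in any library. A share is untouched by any rescaling of a whole library, while gene lengths of the species still enter it.

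**Figure D1:**
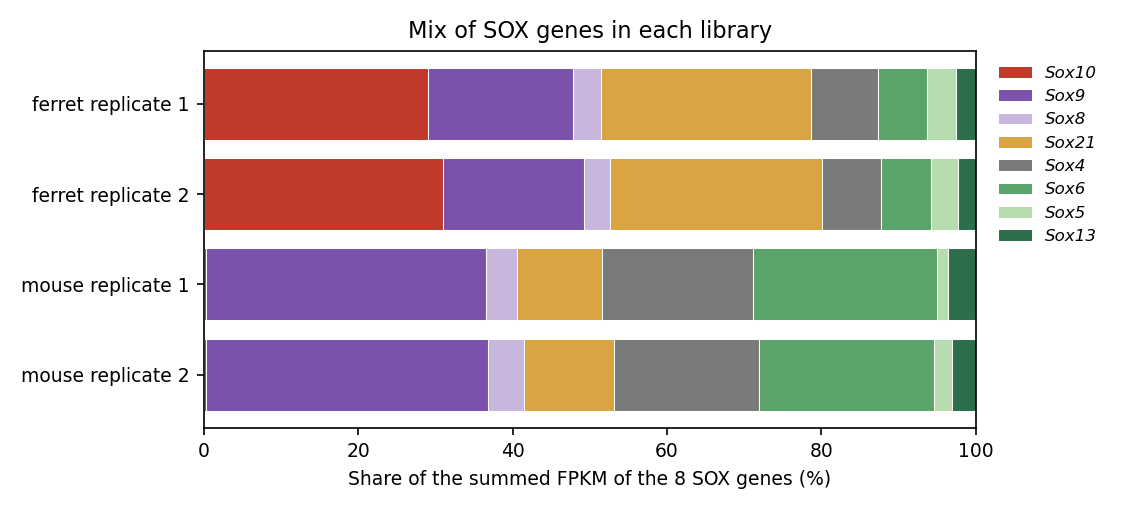
Share of each of 8 SOX genes in their summed FPKM (horizontal axis, %) in the 2 ferret and 2 mouse libraries, 1 bar per library and 1 colour per gene. Sox10 fills 29.1% and 31.0% of the ferret bars and under 1% of the mouse bars, where Sox9 (36.4% on average), Sox6 and Sox4 take more of the length.

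The difference between the mixes can be stated as the percentage points of the total that would have to be moved from some genes to others to turn the mean ferret mix into the mean mouse mix. This was 47.6 percentage points (SD 1.31 over the 4 ferret and mouse library pairs), against 2.19 points between the ferret duplicates and 2.35 points between the mouse duplicates. The 4 pairs of a ferret and a mouse library ranged from 46.0 to 49.2 points. These pairs share libraries, and no test was made of the distance, since exact permutation of 2 against 2 libraries gives no two-sided p below 0.333. By group, the SOXE genes Sox8, Sox9 and Sox10 held 52.1 ± 0.881% (SD, n = 2) of the ferret and 41.1 ± 0.677% of the mouse mix. The SOXD genes Sox5, Sox6 and Sox13 held 12.5 ± 0.261% and 28.4 ± 0.559%. Among these 8 genes, which leave out Sox2 of group B, group E held the largest share in both species, with different leading genes.

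Of the 8 genes, 2 were called higher in ferret astrocytes, Sox10 and Sox21, where 13.1% of all tested genes were called higher. Another 2, Sox4 and Sox6, were called lower, where 30.1% of all tested genes were. With 43.2% of all genes called in either direction and 88.6% past the adjusted p alone, 4 of 8 called and 7 of 8 past the adjusted p were near the background. The split of all genes, 1336 higher and 3069 lower, became 1954 and 2215 with each library set to the mean of the 4 sums, which left 3 SOX genes called higher and 1 lower. The median log2 difference of the 8 genes was -0.26, beside -0.35 over all tested genes. The 2 ferret libraries and the 2 mouse libraries did not overlap for any of the 8 genes, as was so for 35.1% of all genes with ferret higher and 59% with ferret lower.

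**Figure D2:**
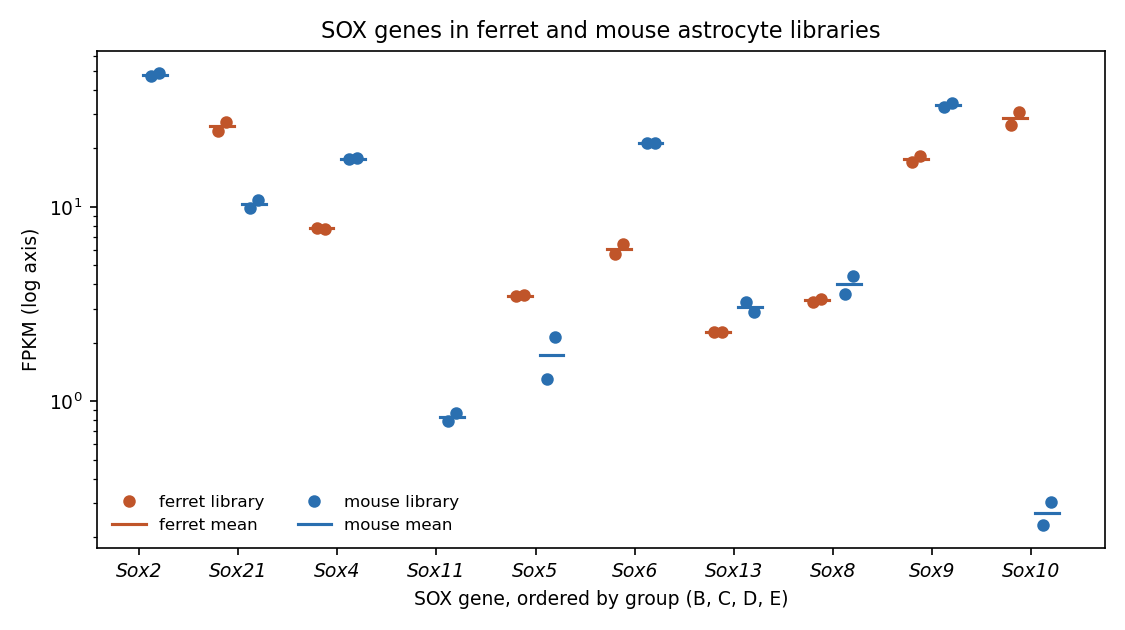
FPKM (vertical log axis) of the 10 SOX genes in each ferret (orange) and mouse (blue) library, points for libraries and short lines for the mean of 2. Sox10 lies at 26.3 and 30.9 FPKM in ferret and at 0.231 and 0.304 in mouse, and Sox2 and Sox11 have mouse points only.

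In group E, Sox10 stood furthest apart. Its protein acts in oligodendrocytes and in the neural crest, including Schwann cells, and switches on myelin genes. Sox10 had 26.3 and 30.9 FPKM in ferret against 0.231 and 0.304 FPKM in mouse. Both ferret libraries lay far above both mouse libraries, and the means differed 107-fold. The log2 difference was 4.54 (SE 0.091, limma adjusted p = 8.38e-11), the 29th highest of 10204 genes. Sox10 was under 1 FPKM in mouse and passed the limit on low values only through ferret, which fixed the direction of its difference. By rank within a library, Sox10 was above 85.9% and 88.1% of the shared symbols in ferret and above 20.5% and 21.7% in mouse. As the mouse level is low, the size of the difference followed the pseudocount, and it was 6.29 on the log2 scale with 0.1 in place of 1. The mouse gene (ENSMUSG00000033006.10) occupies GRCm38 chromosome 15 from 79154908 to 79165240 (minus strand), with 5 exonic regions.

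Sox9, the astroglial member of the group and a widely used nuclear astrocyte marker, had 17.02 and 18.27 FPKM in ferret and 32.6 and 34.4 FPKM in mouse. Both mouse libraries were above both ferret libraries, by a ratio of means of 1.90. Its log2 difference of -0.89 (SE 0.065, limma adjusted p = 5.40e-07) did not reach the size of 1 needed for a call, and was -0.54 relative to the median of all genes. Sox8, a relative of Sox10 with a weaker role in oligodendrocytes, had 3.25 and 3.38 FPKM in ferret and 3.59 and 4.40 FPKM in mouse. This difference of -0.21 (SE 0.092, limma adjusted p = 0.0576) was not past the threshold, and its sign turned positive under each rescaling of the libraries. Within a library, Sox10 stood at 1.55 and 1.69 times the FPKM of Sox9 in ferret and at 0.0071 and 0.0088 times in mouse. The order of the pair was thus opposite in the 2 species. Mouse Sox9 occupies chromosome 11 from 112782224 to 112787760 (plus strand) and Sox8 chromosome 17 from 25565892 to 25570686 (minus strand).

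In group B, Sox21 encodes a repressor that opposes activators such as SOX2 at shared targets and promotes the exit from the progenitor state. Sox21 had 24.7 and 27.3 FPKM in ferret against 9.90 and 10.9 FPKM in mouse. The ferret pair lay above the mouse pair, by a ratio of means of 2.50. The log2 difference was 1.24 (SE 0.076, limma adjusted p = 1.30e-07), and it grew to 1.61 once all libraries were set to a common sum, the mean of the 4. The mouse gene has a single exonic region on chromosome 14 from 118233232 to 118237030 (minus strand), of which 713 bases are shared with exons of the antisense gene Gm4675, itself at 0.651 and 0.634 FPKM. Sox2, the partner of Sox21 and a factor of neural stem cells and astroglia, was the highest SOX gene of the mouse libraries with 47.2 and 48.6 FPKM. It ranked above 90.2% and 90.4% of the shared symbols there. With Sox2 and Sox11 counted, Sox2 took 34.0 ± 0.263% (SD, n = 2) of the mouse mix of 10 genes and Sox9 took 23.8 ± 0.184%. The place of SOX2 in the ferret mix was not analysed here, and the ferret shares are therefore shares of 8 genes and not of the family.

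In group C, Sox4, a factor of progenitors and young neurons that is also widespread in other tissues, had 7.84 and 7.66 FPKM in ferret and 17.6 and 17.8 FPKM in mouse. Both mouse libraries were above both ferret libraries, and the spread of the duplicates was small in both species. The log2 difference was -1.10 (SE 0.065, limma adjusted p = 1.06e-07), a call that was lost under rescaling, at -0.74 with the libraries set to the mean of their 4 sums and -0.68 after quantile normalization. The opposite strand at Sox4 (chromosome 13 from 28948919 to 28953713, minus strand) carries exons of Gm26735 over 2616 of its 4795 exonic bases. Opposite-strand exons of Sox5os1 and 2810468N07Rik also shared 1330 exonic bases with mouse Sox5 and 329 with mouse Sox8. Sox5os1 was listed at 0 in both mouse libraries. The libraries were stranded, but the strand setting of the quantification was not given in the sources used here. Sox11, which acts with Sox4 in young neurons, had 0.794 and 0.874 FPKM in mouse and took 0.592 ± 0.023% (SD, n = 2) of the mouse mix of 10 genes.

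Group D separated into opposite directions. Sox6, which holds back oligodendrocyte differentiation and works with SOX9 in cartilage, had 5.73 and 6.47 FPKM in ferret and 21.35 and 21.36 FPKM in mouse. Its mouse level was 3.50 times the ferret level, with a log2 difference of -1.66 (SE 0.073, limma adjusted p = 1.27e-08). It was the only member called lower under all 3 rescalings, at -1.30 with the mean of the 4 sums. Sox5, its close relative, had 3.47 and 3.54 FPKM in ferret and 1.30 and 2.15 FPKM in mouse, and its mouse duplicates lay farther apart than those of any other member in log2 terms. The ferret pair lay above the mouse pair, with a log2 difference of 0.74 (SE 0.129, limma adjusted p = 3.63e-04). It missed the size of 1 with FPKM as deposited and passed it with 1.02 at the mean of the 4 sums, 1.15 after quantile normalization and 1.02 with a pseudocount of 0.1. Sox13, the third gene of the group, had 2.28 and 2.28 FPKM in ferret and 3.24 and 2.89 FPKM in mouse, with a log2 difference of -0.31 (SE 0.079, limma adjusted p = 0.0044) that equalled the median of all genes to within 0.041, and it was no longer past the adjusted p after rescaling to the mean of the 4 sums (limma adjusted p = 0.779). Within a library, Sox5 stood at 0.605 and 0.547 times Sox6 in ferret and at 0.061 and 0.1005 times in mouse. Both genes span long loci with 25 exonic regions each in mouse, Sox5 on chromosome 6 and Sox6 on chromosome 7.

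**Figure D3:**
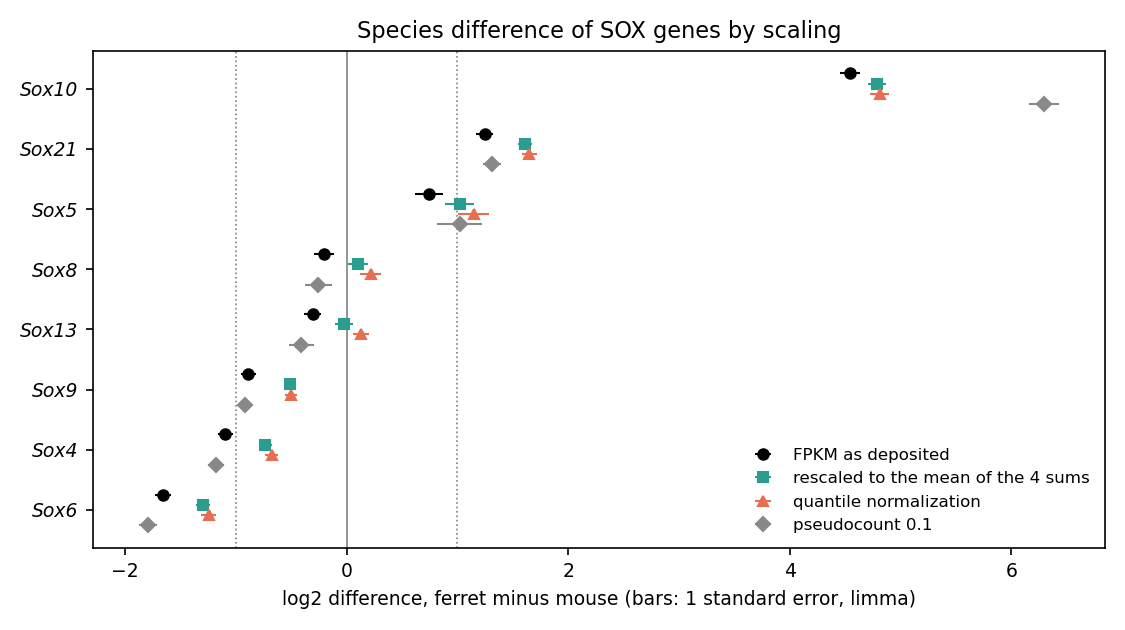
Log2 difference, ferret minus mouse (horizontal axis), of 8 SOX genes with FPKM as deposited, after 2 rescalings and with a pseudocount of 0.1. Bars are 1 standard error of limma, dotted lines mark a difference of 1. Sox10, Sox21 and Sox6 stay outside the dotted lines throughout, Sox4 moves inside from -1.10 and Sox5 moves outside from 0.74.

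The order of levels changed with these differences. In ferret it ran Sox10, Sox21, Sox9, Sox4, Sox6, Sox5, Sox8 and Sox13, and the library values of Sox10 and Sox21 overlapped, so that the first place was not separated from the next. In mouse, with all 10 members, it ran Sox2, Sox9, Sox6, Sox4, Sox21, Sox8, Sox13, Sox5, Sox11 and Sox10. No neighbouring members overlapped in mouse. Sox10 thus shared the top of the ferret order of 8 genes with Sox21 and was the lowest of the 10 in mouse.

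Genes that SOX10 is known to act with or upon in oligodendrocytes and Schwann cells were examined as a fixed list of 15, of which 13 had a value in both species and 11 passed the limit on low values. Of these 11, 4 were called higher and 1 lower in ferret, and 6 were not called, with a median log2 difference of 0.70 beside -0.35 over all genes. At 13.1% higher and 30.1% lower over all genes, the share called higher was above the background and the share called lower under it. The count called higher includes genes that passed the limit only through ferret, and no set test was made. The count called higher was 7 with each library set to a sum of 1000000. S100b, a calcium-binding protein of astrocytes and other glia, had 247.4 and 243.8 FPKM in ferret and 57.4 and 63.1 FPKM in mouse. Mbp, a main protein of the myelin sheath, had 28.5 and 33.1 FPKM in ferret against 2.95 and 1.78 FPKM in mouse, a log2 difference of 3.26 (SE 0.145, limma adjusted p = 1.29e-08). Ferret libraries were above mouse libraries for both genes. Cnp, an enzyme of myelinating cells, had 86.0 ± 8.54 FPKM (SD, n = 2) in ferret and 46.6 ± 1.48 in mouse and was not called, with a log2 difference of 0.87. Ednrb, the endothelin receptor B of astrocytes and neural crest cells, went the other way and was the gene called lower, with 3.86 and 3.58 FPKM in ferret and 42.8 and 46.1 FPKM in mouse.

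The other two called higher, named after their values were seen, were Erbb3, the neuregulin co-receptor of Schwann cells (log2 difference 3.97), and Nkx2-2, a factor of oligodendrocyte differentiation (2.81). Erbb3 was at 19.8 ± 1.91 FPKM (SD, n = 2) in ferret and 0.322 ± 0.0042 in mouse. Nkx2-2 was at 0.750 ± 0.082 FPKM in mouse. Both genes passed the limit on low values only through ferret, which fixed their direction. Not all of the list was higher in ferret. Olig2, which specifies the oligodendrocyte lineage, had 5.05 ± 0.187 FPKM (SD, n = 2) in ferret and 9.71 ± 0.131 in mouse, and Myrf, a factor of myelin gene expression also named after its values were seen, had 1.08 ± 0.084 and 1.19 ± 0.0079 FPKM (limma adjusted p = 0.374). Correlation with Sox10 across libraries was not computed, as the 4 libraries form 2 groups.

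**Figure D4:**
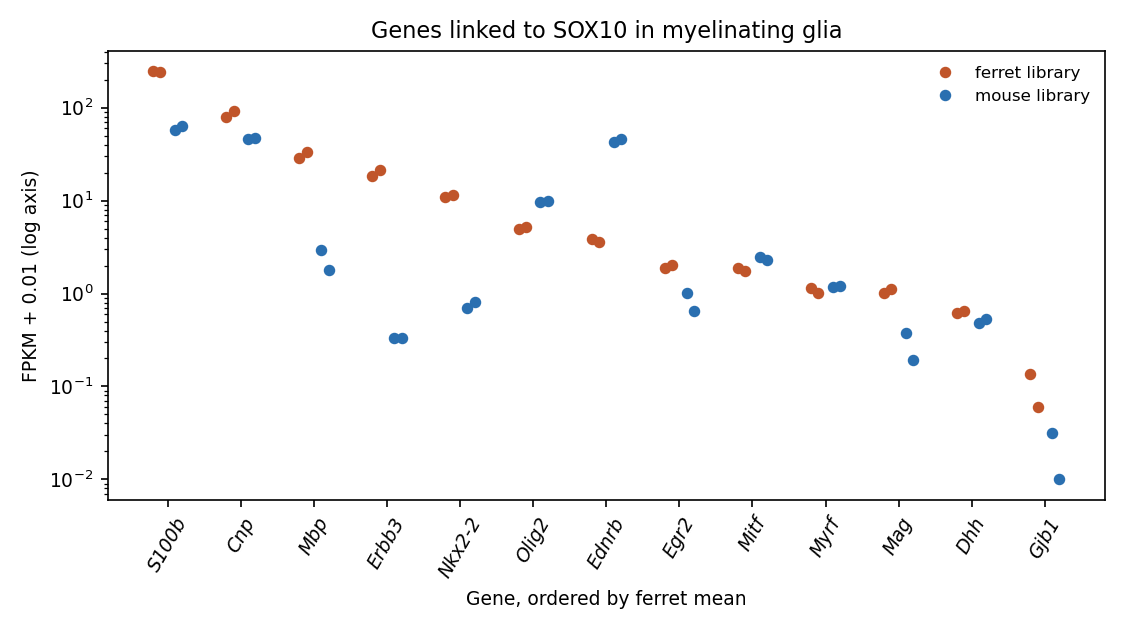
FPKM + 0.01 (vertical log axis) of 13 genes linked to SOX10 in myelinating glia, in each ferret (orange) and mouse (blue) library, ordered by ferret mean. Erbb3 shows the widest gap, while Olig2 and Ednrb are lower in ferret.

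Bulk libraries hold the RNA of whole cultures, in which a different number of cells of a type and a different RNA level per cell cannot be told apart. The paper stained cultures for cell type proteins and counted nearly all cells of both species as astrocytes. It counted the rest as microglia in mouse, and as microglia and neurons in ferret. The stained cultures were kept in serum, whereas the RNA came from serum-free medium. Markers of other cells were counted beside Sox10. The marker lists share genes with the SOX10-linked list, so their counts are not independent of it. Among these are Mbp, Cnp, Olig2 and Myrf (oligodendrocyte), Erbb3 (Schwann cell) and S100b (astrocyte). Of 13 oligodendrocyte lineage markers, 11 had a value in both species and 9 were tested, of which 3 were called higher and 0 lower by limma, with 8 of 9 at an unadjusted p under 0.05 in either direction, beside 13.1% higher, 30.1% lower and 89% at an unadjusted p over all genes. The 8 of 9 were thus near the background. Their summed level was 124.8 to 143.1 FPKM in the ferret and 64.4 to 64.9 FPKM in the mouse libraries, and none was at 0 in both libraries of a species. Of the oligodendrocyte markers called higher, all except Mbp were under 1 FPKM in mouse and passed the limit on low values through ferret only. This fixed their direction. Of 15 Schwann cell and neural crest markers, 13 had a value in both species and 10 were tested. Of these, 5 were called higher and 2 lower, beside 13.1% and 30.1% of all genes. Those called higher except Mal were under 1 FPKM in mouse and passed the limit through ferret only, which fixed their direction. The summed level of the 13 markers went the other way, at 353.4 to 371.2 FPKM in ferret and 1401 to 1453 FPKM in mouse. Fabp7, which is also a radial glial gene, alone had 1252 ± 27.6 FPKM (SD, n = 2) in mouse. Pax3 was listed at 0 in both mouse libraries, and in ferret it stood at 0.0052 ± 0.0074 FPKM. Tfap2a, a neural crest factor named after its values were seen, was at 0.166 ± 0.0057 FPKM in ferret and 0.183 ± 0.064 in mouse. The part of such cells in the Sox10 level was not tested.

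Genes linked to SOX9 were called in both directions. Of 10 cartilage matrix genes that SOX9 controls in chondrocytes, 8 were tested, with 2 called higher and 2 lower, beside 13.1% and 30.1% of all genes. Their median log2 difference was -0.36, beside -0.35 over all genes. The count called lower and the median were thus near the background. The cartilage genes called higher were all under 1 FPKM in mouse, and those called lower were all under 1 FPKM in ferret. They passed the limit on low values through the other species only, which fixed their directions. Col11a1, the most abundant cartilage gene, had 27.4 ± 0.281 FPKM (SD, n = 2) in ferret and 24.5 ± 0.238 in mouse, a log2 difference of 0.15. Hapln1, a link protein of the hyaluronan matrix, was called lower, with 0.531 ± 0.168 FPKM in ferret and 5.03 ± 0.687 in mouse (log2 difference -1.98), and Col9a2 was called higher with 4.03 ± 0.463 and 0.298 ± 0.031 FPKM (1.95). Of 9 genes of the SOX9 and NFIA gliogenic programme, 8 were tested, 0 were called higher and 4 lower by limma, with a median of -0.88. The shares over all genes were again 13.1% higher and 30.1% lower. At an unadjusted p under 0.05, without the limit on size, all 8 differed in either direction, as did 89% of all genes, so this count was near the background. Zcchc24, a target of SOX9 with NFIA, was among those called lower, with 32.7 ± 1.00 FPKM (SD, n = 2) in ferret and 106 ± 0.993 in mouse. The nuclear factor I genes Nfia, Nfib and Nfix were not called, with log2 differences of 0.33, 0.52 and 0.64.

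Of 14 neural progenitor genes, among which SOX2 and SOX21 act, 11 were tested, with 1 called higher and 5 lower, beside 13.1% and 30.1% of all genes, and a median of -0.997. Those called lower fell to 3 with the mean of the 4 sums and after quantile normalization. Some of the 5 called lower with FPKM as deposited were under 1 FPKM in ferret. They passed the limit on low values through mouse only, which fixed their direction. Fabp7 was called lower, at 180 ± 14.0 FPKM (SD, n = 2) in ferret against 1252 ± 27.6 in mouse (log2 difference -2.79). Nes, an intermediate filament of progenitors, had 70.8 ± 4.28 and 126 ± 0.765 FPKM and was not called (-0.83), and neither was Msi1 (-0.997), an RNA-binding protein of progenitors, nor Pax6 (0.19), a cortical progenitor factor. Lin28b was listed at 0 in both ferret libraries.

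Markers of neurons, in which Sox4 and Sox11 are active, were at mixed levels. Of 17, 7 were tested, with 4 called higher and 0 lower in ferret by limma, beside 13.1% and 30.1% of all genes. All 7 were at an unadjusted p under 0.05 by limma in either direction, near the 89% of all genes. The summed level was 59.4 to 59.6 FPKM in ferret and 53.4 to 56.4 FPKM in mouse. Map2 (18.9 FPKM in ferret, 30.8 in mouse) and Gap43 (23.6 and 20.65) were its largest parts and were not called. Nefl (5.05 and 0.115) and Syt1 (5.03 and 1.19) were called higher. All those called higher except Syt1 were under 1 FPKM in mouse and passed the limit through ferret only. Of the markers tested, those of microglia, meningeal fibroblasts and endothelium were mostly called lower in ferret, where 30.1% of all genes were. Of 18 microglial markers tested, 17 were called lower, with sums of 77.5 to 77.6 FPKM in ferret and 957 to 985 FPKM in mouse and Cx3cr1 listed at 0 in both ferret libraries. All 13 meningeal fibroblast markers tested were called lower, with sums of 165 to 187 FPKM in ferret and 2165 to 2215 FPKM in mouse and Mgp listed at 0 in ferret. Most microglial markers called lower, and some fibroblast markers such as Serpinf1 and Mgp, were under 1 FPKM in ferret. These passed the limit on low values through mouse only, which fixed their direction. Of 13 endothelial markers 5 were tested and 4 called lower, with sums of 1.97 to 2.85 and 35.7 to 35.9 FPKM. The 4 were under 1 FPKM in ferret and passed the limit on low values through mouse only. Cdh5 alone had 22.2 ± 0.353 FPKM (SD, n = 2) in mouse, where Pecam1 stood at 0.036 ± 0.0067. Pecam1, Cdh5 and Tek were listed at 0 in ferret and Cldn5 in mouse. The part of any such cells in the levels of Sox4, Sox6 and Sox9 was not tested.

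Of the 10 SOX genes outside the set, 5 had a value in both species and all 5 were under the limit on low values. Sox15 had 0.215 and 0.377 FPKM in ferret and 0.041 and 0 FPKM in mouse. Sox3, a group B relative of Sox2, had 0.260 ± 0.119 FPKM (SD, n = 2) in ferret and 0.263 ± 0.063 in mouse. Sox30 had 0.036 and 0.021 FPKM in ferret and 0.125 and 0.069 FPKM in mouse, and Sox14 and Sox17 were listed at 0 in all 4 libraries.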

How the data were processed

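Total RNA of cultured ferret and mouse astrocytes was sequenced after polyA selection, in 2 libraries per species. The authors aligned the reads with STAR 2.7.0f to the Ensembl genome of each species, MusPutFur1.0 and GRCm38, and deposited FPKM per gene and library from Cufflinks 2.2.1. FPKM is normalized by the authors to mapped fragments and exon length, and carries no counts. The library titles gave the species and replicate number.

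Symbols were matched in upper case, and of several values for a symbol the highest by species mean was taken. Values were set to log2(FPKM + 1) and fitted by limma 3.58.1 under R 4.3.3 (trended empirical Bayes, no covariates, Benjamini-Hochberg adjustment) over 10204 genes. Tested on simulated data for this comparison, with 200 of 10204 genes changed by a log2 value of 1.5, the fit called 99% of them and 0 others. The simulation had few changed genes and no shift of whole libraries, whereas 43.2% of genes were called in the data. It therefore does not measure false calls here. The mix was planned for 10 genes and computed for the 8 with a value in both species, with Python 3.11.15. Mouse loci and coding stretches came from GENCODE M21 on GRCm38, an annotation other than the Ensembl release of the authors.

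The members, lists and tests were chosen with earlier results of these data known. Named genes were the members, other SOX genes with a value in both species, the 4 most abundant genes of lists and those at 0 in a species, except where the text says otherwise. Astrocyte, neuron and other cell markers are given as counts and sums where no result turned on a gene. Some genes of the fixed lists are not reported here, and the list counts and sums leave them out.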

Additional observations from a re-analysis of the deposited data

How the results depend on the processing

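Species, gene models and culture cannot be told apart in these 4 libraries. The read counts given by the paper were not used here, so the mouse level of Sox10 has no interval. Sox10, Sox21 and Sox6 kept their direction and call under all alternatives tried: a pseudocount of 0.1, all shared symbols fitted, 3 rescalings, the replicate number as a block, summed values per symbol and each library left out, where the lone library of a species was assumed to vary like the other pair. The direction of Sox10 was fixed by the limit on low values wherever that limit was applied. Rescaling changed the other counts. Over all genes, those called higher in ferret rose from 1336 to 2197 with each library set to a sum of 1000000 and to 2076 after quantile normalization. The split of 1336 higher and 3069 lower became 1954 and 2215 with the mean of the 4 sums, and the median of all genes moved from -0.35 to -0.01 (both sums) and 0.05 (quantile). Members called lower went from 2 to 1 with a sum of 1000000, with the mean of the 4 sums and after quantile normalization, as Sox4 lay at -0.78, -0.74 and -0.68. Members called higher went from 2 to 3 with the addition of Sox5 (1.30 at a sum of 1000000). SOX10-linked genes called higher went from 4 to 7 at a sum of 1000000, and oligodendrocyte markers called higher from 3 to 6 there and to 5 with the other rescalings or a pseudocount of 0.1. Genes of the SOX9 and NFIA programme called higher went from 0 to 1 with either sum, and cartilage genes called lower from 2 to 4 with a pseudocount of 0.1. Astrocyte markers called higher went from 1 to 2 under each rescaling, and those called lower from 7 to 5 with either sum. The sign of Sox8 turned to 0.12, 0.10 and 0.22 in that order of rescalings, and that of Sox13 to 0.13 after quantile normalization, none of them past the threshold (adjusted p of 0.0635 to 0.317 by limma). The distance between the mixes stayed between 46.7 and 48.4 points when each library was left out and was 47.4 points after quantile normalization. With the replicate number as a block, the members called stayed at 2 higher and 2 lower, all genes called at 1342 higher and 3072 lower, and Sox8 had an adjusted p of 0.0425 by limma. The replicate numbers come from the labels alone, the species are different animals, and duplicate differences of the species correlated at 0.0099 across 10204 genes, so the numbers do not pair the libraries. Without mouse replicate 1 the adjusted p of Sox8 was 0.0197 by limma (range over its alternatives 0.0197 to 0.381).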

Other observations

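Among SOX genes with a mouse value and no ferret value used here, Sox1, a group B progenitor factor, had 3.87 and 3.97 FPKM, next to Sox8 in the mouse order, whose library values overlapped those of Sox1. Sox12, of the same group as Sox4 and Sox11, had 2.205 and 2.08 FPKM. Sox7, a group F gene of endothelium, had 0.705 and 0.799 FPKM, and Sox18 of the same group had 0.040 and 0.017 FPKM. Sry was listed at 0 in both mouse libraries. These values stand in no comparison between species.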
